A study of Drosophila melanogaster with 2 samples.

Results

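Binding of the transcription factor Sage was mapped by chromatin immunoprecipitation with sequencing (ChIP-seq), and the peaks described here lay inside introns a short way from a transcription start site (TSS). They were chosen from the submitters' optimal list of peaks past an irreproducible discovery rate threshold (IDR peaks) on the dm6 build. That rate scores how alike regions rank between lists, but not every listed peak had a region in both replicates. A peak was taken when its summit lay inside a protein-coding gene, in no annotated exon of any gene, and 501 to 2000 bp from the nearest TSS of any annotated transcript, with transposable elements left out. Of 3312 IDR peaks, 3292 lay on 1 of the arms 2L, 2R, 3L, 3R, X or 4. The rule was met by 524 of these (15.9%). They are called the near-TSS intronic peaks below. Of the other peaks on arms, 1557 lay within 500 bp of a TSS (promoter peaks), 676 lay in introns more than 2000 bp from any TSS (deep intronic peaks), 422 between genes, 87 in exons and 26 in introns of non-coding genes.

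The samples were whole wandering larvae of the third instar, males and females together, of a Drosophila melanogaster line carrying a transgene for Sage with GFP at its C-terminus. Chromatin was fragmented with a Bioruptor sonicator, with a stated size range of 200 to 800 bp, and precipitated with an antibody against GFP. The 2 samples, biological replicates 3 and 4, form 1 group, so there was no comparison between groups. The files are peak lists without reads, so the sequencing depth is unknown. The factor was a tagged transgene product and the animals were whole, so the tissue that carried a given peak is not known. Sage belongs to the basic helix-loop-helix (bHLH) factors and is known for its role in the salivary gland. Factors of this family bind E-boxes, sites of the form CANNTG. Introns near a TSS are known to hold enhancers of the host gene, and where a gene has several promoters, the stretch ahead of an internal promoter is at the same time intron of the longer transcripts.

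The 12 strongest near-TSS intronic peaks are printed because they carry the highest values and because they show the sequence at the summits, with long stretches of A and T. Each line gives 101 bp centred on the summit, read 5′ to 3′ on the plus strand of the RefSeq Release 6 genome (dm6), with the host gene and the window's position. Capitals mark E-boxes.
CG11050 chr2L:6612627-6612727: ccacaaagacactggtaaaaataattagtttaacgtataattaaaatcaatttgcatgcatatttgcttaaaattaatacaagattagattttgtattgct
ush chr2L:480995-481095: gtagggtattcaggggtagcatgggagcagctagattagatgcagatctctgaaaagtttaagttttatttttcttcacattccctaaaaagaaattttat
Lk6 chr3R:11760991-11761091: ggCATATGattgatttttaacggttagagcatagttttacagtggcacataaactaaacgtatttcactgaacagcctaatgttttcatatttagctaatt
CG32772 chrX:4910350-4910450: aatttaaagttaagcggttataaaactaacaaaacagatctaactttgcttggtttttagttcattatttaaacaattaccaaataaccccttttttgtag
CG9663 stronger chr2L:3302133-3302233: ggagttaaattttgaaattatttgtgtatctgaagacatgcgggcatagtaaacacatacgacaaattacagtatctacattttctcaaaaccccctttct
Trl chr3L:14759442-14759542: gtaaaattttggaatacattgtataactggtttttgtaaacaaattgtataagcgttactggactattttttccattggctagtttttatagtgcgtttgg
crb chr3R:24296012-24296112: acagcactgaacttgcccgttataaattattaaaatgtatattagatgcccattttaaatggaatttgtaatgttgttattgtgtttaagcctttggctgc
Zw chrX:19668548-19668648: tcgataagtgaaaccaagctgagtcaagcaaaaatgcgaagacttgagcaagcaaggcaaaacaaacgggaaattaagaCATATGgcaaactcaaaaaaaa
CG9663 weaker chr2L:3302335-3302435: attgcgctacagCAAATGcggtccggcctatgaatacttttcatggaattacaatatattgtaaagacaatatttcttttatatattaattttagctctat
chif chr2L:16351218-16351318: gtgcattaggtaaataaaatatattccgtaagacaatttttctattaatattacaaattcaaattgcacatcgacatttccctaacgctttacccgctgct
CG3726 chrX:5918871-5918971: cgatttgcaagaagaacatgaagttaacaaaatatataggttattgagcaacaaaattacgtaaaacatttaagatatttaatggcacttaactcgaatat
norpA chrX:4324956-4325056: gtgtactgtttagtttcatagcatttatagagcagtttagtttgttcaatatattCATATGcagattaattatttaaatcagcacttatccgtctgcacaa

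Of these 12 windows, 4 held an E-box, 3 times CATATG and once CAAATG. GC content ran from 23.8% in the CG11050 window to 37.6% in the Zw window.

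The strongest near-TSS intronic peak lay in CG11050 (FBgn0031836, 2L 6612384 to 6612874). Its signal, the authors' own value for a peak, was 1450.0, the highest of all 3292 peaks on arms, and it ranked 1 in replicate 3's list and 11 in replicate 4's. The summit lay 990 bp downstream of a CG11050 TSS, in the second intron, which is 140 bp long. The next peak, with a signal of 1109.9 (2L 480941 to 481261), lay in the first intron of ush, which encodes the GATA cofactor U-shaped. The nearest TSS was that of another gene, cbt, which encodes the zinc finger factor Cabut, 1357 bp away and reading away from the summit. Its rank was 7 in replicate 3 and 17 in replicate 4. The third, with a signal of 1010.5 (3R 11760908 to 11761183), lay 962 bp upstream of an internal TSS of Lk6, a kinase that phosphorylates the translation factor eIF4E, and ranked 18 in both replicates.

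Strong peaks followed at genes of varied function. CG32772 had a signal of 867, and CG9663 had a pair of peaks 202 bp apart with signals of 779 and 601. Trl, the gene of the GAGA factor, had 656 in its second intron, 1530 bp upstream of an internal TSS (3L 14759357 to 14759682, rank 28 in replicate 3 and 61 in replicate 4). The gene crb, for the apical polarity protein Crumbs, had 626 (3R 24295944 to 24296213, ranks 41 and 57 in replicates 3 and 4). Zw, for glucose-6-phosphate dehydrogenase, had 617, nearest the TSS of the non-coding gene asRNA:CR44512. The other 16 of the 25 strongest peaks lay in chif, CG3726, norpA (the phospholipase C of phototransduction), CG42327, Fem-1, prage, pum (the RNA-binding repressor Pumilio), HmgZ, Ptp10D (a receptor tyrosine phosphatase), CG9837, CG4496, aru, LPCAT, wit (a BMP type II receptor), for (a cGMP-dependent protein kinase) and Mhcl, with signals from 589.6 in chif to 401 in Mhcl. All 25 met one of the 3312 strongest regions of both replicates, with ranks of at most 123 in replicate 3 and 197 in replicate 4. Of the 25, 22 lay in a first intron, 22 had a TSS of the host gene as the nearest, and 17 lay downstream of the nearest TSS.

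**Figure D1:**
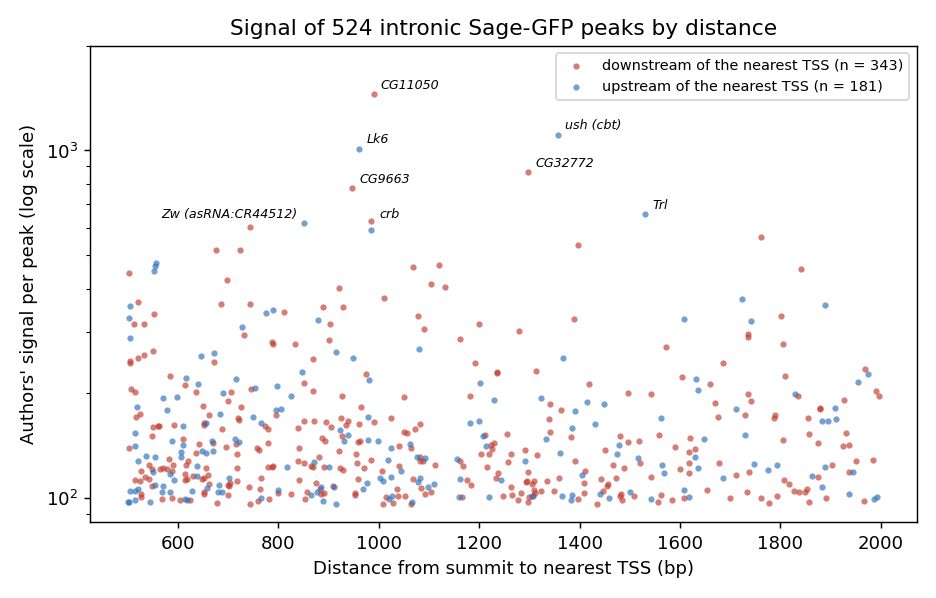
Signal of each of the 524 near-TSS intronic peaks (y axis, log scale, the authors' value) against the distance of its summit from the nearest TSS (x axis, bp), coloured by the side of that TSS. Strong and weak peaks occur at all distances, and the 8 strongest are named by host gene, with the gene of the nearest TSS in brackets where it differs.

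The near-TSS intronic peaks were otherwise of ordinary strength for the list. Their median signal was 134 (middle 50% from 110.0 to 185, full range 95.8 to 1450.0), beside 135 over all peaks on arms, 135 in promoter peaks, 133 in deep intronic peaks and 139 in intergenic peaks. With the peaks on arms cut by signal into 10 bins of equal size, they made up 17.9% of the strongest bin, 17.6% of the weakest and 13.3% to 17.3% of each bin between. In the upper 50% of the IDR list stood 258 of them (49.2%), beside 49.8% of all peaks on arms.

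Most, but not all, were strong in both replicates taken alone. Of the 524, 308 (58.8%, exact binomial 95% interval 54.4 to 63, which covers counting error only) met a region among the strongest 3312 of both replicates, where 58.5% of all peaks on arms did. Replicate 3's strongest regions covered 395 of them and replicate 4's 417, so 87 were covered in replicate 3 alone, 109 in replicate 4 alone and 20 in neither. When the matching region's summit also had to lie within 100 bp, the share was 51.1%, beside 51.5% over all peaks on arms. Of the 524, 14 met a replicate region that also held a stronger IDR peak, so their ranks are those of a shared region. This holds for the weaker peak of the CG9663 pair and for the weaker peaks beside strong ones in CG42327, shn and psq. Across the 512 peaks listed in both replicates, replicate signals had a Pearson coefficient of 0.61 after log2 transformation and a rank (Spearman) coefficient of 0.448. These are descriptions, since the peaks share libraries and a list.

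**Figure D2:**
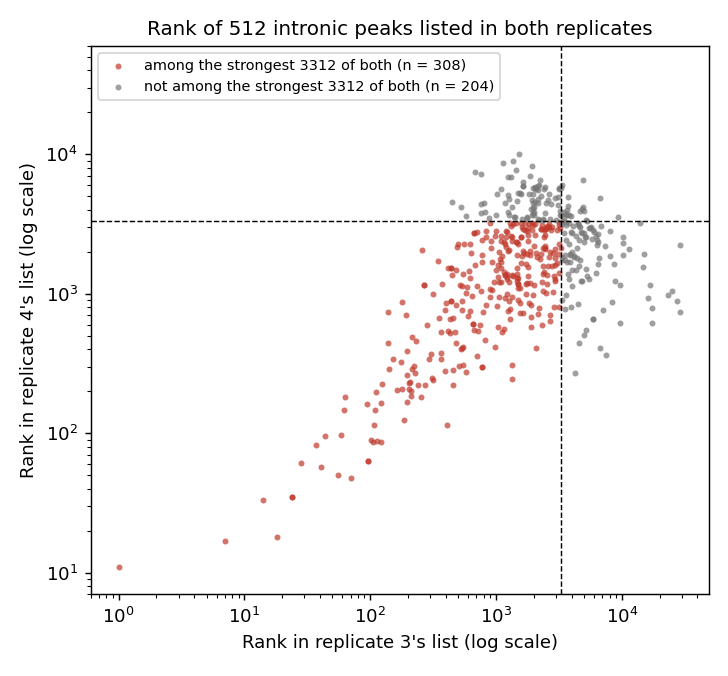
Rank of 512 near-TSS intronic peaks in replicate 3's list (x axis) and in replicate 4's list (y axis), both on log scales, where rank 1 is the strongest region and dashed lines mark rank 3312. The strongest peaks lie close to the diagonal, and many of the weaker ones lie beyond rank 3312 in at least 1 replicate.

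Single peaks in this set could be far apart between the replicates. The following were picked after their values were seen, from among the peaks with the most unequal ranks. A peak of fz2, a Wnt receptor gene, ranked 28835 in replicate 3 and 737 in replicate 4. A peak of Eip75B, an early ecdysone-response nuclear receptor gene, ranked 17479 in replicate 3 and 613 in replicate 4, and Akap200 (27518 and 894), CtBP (23338 and 980) and chn (24891 and 1047) were unequal in the same direction. In the other direction, Pdcd4 ranked 678 in replicate 3 and 7510 in replicate 4, bip1 766 and 7221, and msi 446 and 4582. In all, 8 peaks had no region at all in replicate 3, among them those in osa (signal 113) and Tgi (109.6), and 4 had none in replicate 4, in ps (173), Hsp110 (154), Cyp9f3 (122) and C3G (109.2).

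Position was set by the rule, so only its details are of interest. Distances to the nearest TSS ran from 501 to 1996 bp with a median of 1008.5 bp. Introns offer less sequence far from a TSS than near one, so peaks were counted per Mb of arm sequence that meets the position rule, of which there were 11181214 bp (8.35% of the arms). The density was 46.9 near-TSS intronic peaks per such Mb, beside 16.7 deep intronic peaks per Mb of intron beyond 2000 bp and 24.6 IDR peaks per Mb of arm. Within the window it was 68.0 per Mb at 501 to 750 bp (151 peaks), 51.7 at 751 to 1000 bp, 42.3 in the range after that, up to 1250 bp, 42.2 at 1251 to 1500 bp, 32.8 at 1501 to 1750 bp and 35.9 at 1751 to 2000 bp (55 peaks). Peaks built the same way from each replicate's own 3312 strongest regions were also densest below 1000 bp, with 66.2 and 52.2 per Mb in the nearest and next range in replicate 3 and 59.0 and 58.4 in replicate 4. Signal did not follow this order, with medians of 137, 146, 129, 119, 137 and 142 from the nearest range to the farthest, and a Spearman coefficient between distance and signal of -0.05 over 524 peaks, given as a description. Per arm the density was 52.1 on 2R, 51.4 on 3R, 47.0 on X, 45.7 on 2L, 39.6 on 3L and 16.1 on chromosome 4, where only 2 peaks lay.

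**Figure D3:**
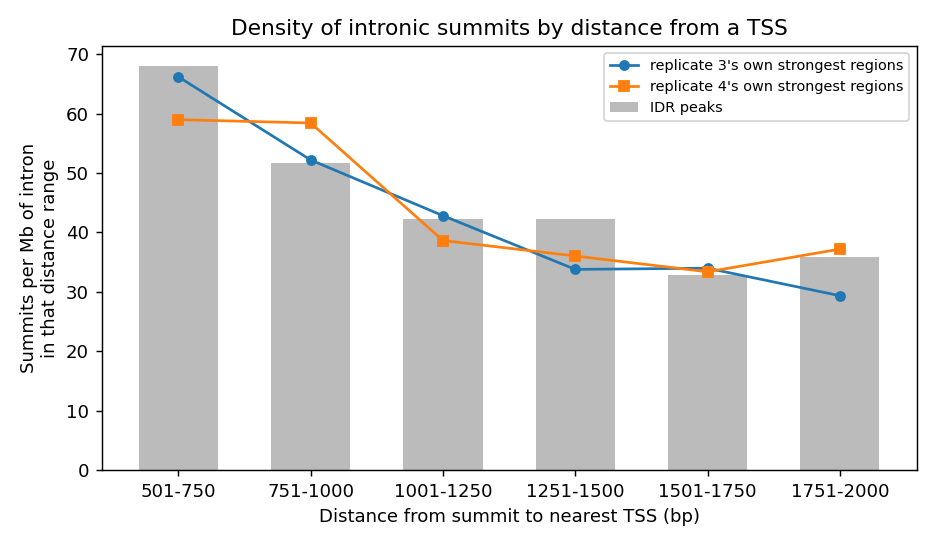
Summits per Mb of intronic sequence in each 250 bp range of distance from the nearest TSS, for the IDR peaks (bars) and for each replicate's own 3312 strongest regions (lines). All 3 series are higher in the 2 ranges up to 1000 bp than in the 4 beyond.

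The edges of the rule cut through a continuous set. Just inside it at the near end were peaks in CG6891 (501 bp, signal 96.9), mmy (503 bp, 139) and tou (503 bp, 97), and just outside were intronic peaks in raw (499 bp, 109), HmgD (491 bp, 144) and CG42394 (490 bp, 111). Just inside at the far end were RhoGAP18B (1996 bp, 196), lbk (1993 bp, 100.2) and crol (1991 bp, 203), and just outside were puc (2006 bp, 138), spg (2019 bp, 109) and CG12535 (2020 bp, 250.05). In signal, the weakest peaks that met the rule were in Mnt (95.8), aop (95.8) and CG17528 (95.9), and the strongest regions of the pooled list that met the position rule but were not IDR peaks lay in pot (95.5), MFS14 (95.5) and CG32473 (95.1). By pooled signal the former ranked 3306, 3303 and 3301, and the latter 3321, 3328 and 3347. Among regions meeting the position rule, the IDR peaks were thus those with the highest pooled signal. Of 29975 pooled regions on arms, 4430 met the position rule, and 11.8% of these were IDR peaks, where 11% of all pooled regions on arms were.

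For most of these peaks the nearest TSS belonged to the gene they sat in. This held for 441 of 524 (84.2%, 95% interval 80.7 to 87.2), beside 64.3% of deep intronic peaks. The position rule asks for a summit inside a gene and near a TSS, which favours a TSS of the host. Deep intronic peaks lie farther from any TSS by definition, so they are no matched comparison. The share was not computed over all sequence meeting the rule, so it is not read as a preference. For 314 of the 441 the summit lay downstream of the host's TSS. For 127 (24.2%) it lay upstream of an internal TSS of the host, that is, ahead of an alternative promoter and inside an intron of longer transcripts. For another 35 the nearest TSS was that of another protein-coding gene and for 48 that of a non-coding gene (37 non-coding RNA genes, 8 tRNA and 3 snoRNA genes). In all, 343 (65.5%, 95% interval 61.2 to 69.5) lay downstream of the nearest TSS, beside 63% of deep intronic peaks and 64.6% of points taken every 50 bp over the sequence that meets the rule. Of the 524, 407 (77.7%) lay in the first intron of the host transcript with the nearest TSS that spans the summit, 83 in the second and 34 further on. The choice of that transcript favours a first intron, so the share is not read as a preference. The summit lay ahead of the start codon, in an intron between non-coding first exons or before the first coding exon, in 306 (58.4%), between coding exons in 215 and beyond the stop codon in 3. The shares upstream of an internal TSS and ahead of the start codon were not computed over all sequence meeting the rule either. The intron had a median length of 4990.5 bp (123 to 103624 bp), and the host gene 16206 bp (941 to 171340 bp), beside 40687 bp for hosts of deep intronic peaks. The position rule itself needs a host of some length.

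A peak at the nearest TSS itself accompanied 154 of the 524 (29.4%, 95% interval 25.5 to 33.5), counted as another IDR summit within 500 bp of that TSS, beside 24.1% for deep intronic peaks and their nearest TSS. The nearest promoter of the others held no IDR summit. Of the 25 strongest, 11 had one, among them ush (at cbt), CG32772, CG9663 and Trl, and CG11050, Lk6 and crb had none. With only the upper 50% of the list used, both for the intronic peaks and for the summits at a TSS, it was 18.2%. The nearest other IDR summit lay at a median of 2065.5 bp, beside 3469 bp for deep intronic peaks, and 63 peaks had another peak of the same kind within 1000 bp.

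The 524 peaks fell in 421 host genes, counting 1 host for each peak. A single peak lay in 345 of them, 2 peaks in 59, 3 in 13, and 4, 5, 6 and 7 in 1 gene each. With nested genes counted as well, 450 protein-coding genes had such a summit inside, which is 3.23% of all 13945 on the arms and 5% of the 9005 that have any sequence meeting the rule. The 17 genes with 3 or more held 61 peaks.

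The gene with the most was shn, for the zinc finger factor Schnurri of the Dpp pathway, with 7 peaks at signals of 105.3 to 191 in 58.3 kb (2R 11159086 to 11217394). Of these, 4 lay upstream of an internal shn TSS and 3 downstream, and none had an IDR summit at the TSS it was nearest to. Tlk, for Tousled-like kinase, had 6 peaks (101.3 to 196) in 69.8 kb on X. EcR, the ecdysone receptor gene, had 5 (113 to 181, 2R 6087873 to 6169087), of which 1 lay 544 bp downstream of an EcR TSS and 4 were nearest to tRNA genes that lie inside EcR. Eip75B had 4 (115 to 146), 3 of them upstream of an internal Eip75B TSS.

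The genes with 3 peaks each were led by CG42327 (highest signal 517), CG9837 (454), CHES-1-like, a forkhead gene (339), brat, a translational repressor (256), tai, a coactivator of the ecdysone receptor (253), and Svil, the supervillin gene (227). The others were RhoGAP18B (196), psq, a BTB factor (169.9), Syp (145) and shep (143), both RNA-binding protein genes, CG10365 (134), CG1677 (131) and lbk (124). In brat, 2 of the 3 peaks were nearest to the TSS of Polr1D. None of the 3 peaks of Syp or of shep was among the strongest 3312 of both replicates.

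Gene lists drawn up for the stage and tissues were counted for hosts, and the counts and densities below are descriptions beside the 3.23% of all protein-coding genes and the 46.9 peaks per Mb over all sequence meeting the rule. Long genes with several promoters offer more such sequence, and the density per Mb takes that sequence, but not other differences between genes, into account. The lists overlap, so that EcR and tai, for example, count in more than 1.

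Genes of the ecdysone response, the steroid hormone that starts metamorphosis at this stage, hosted the peaks in 8 of 22 cases (36.4%), with 17 peaks at 149 per Mb. Beside EcR, Eip75B and tai, they were ImpL2, a secreted antagonist of insulin signalling (268, 1080 bp upstream of an ImpL2 TSS, rank 484 in replicate 3 and 447 in replicate 4), Eip74EF, an ETS factor (168), Eip63E, a cyclin-dependent kinase (117), br, the Broad factor gene (108), and Hr4, a nuclear receptor (99.7). The br peak lay nearest the TSS of the overlapping gene Mur2B and had no region in replicate 3. In peaks built from each replicate's own strongest regions the count was 6 of 22 in replicate 3 and 8 of 22 in replicate 4. Nuclear receptors as a family had 3 of 21 genes with 10 peaks, all at EcR, Eip75B and Hr4.

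Genes of growth and patterning signals were counted next. In the insulin and TOR list, 4 of 24 genes were hosts (127 peaks per Mb): Lk6 (1010.5), sima, the HIF-1 alpha gene (328), InR, the insulin receptor gene (107) and Akt (104.0), and the InR and Akt peaks shown were beyond rank 3312 in replicate 3. In the Wnt, Hh and Dpp list, 6 of 30 were hosts (143 per Mb). They were shn, sgg, the GSK3 kinase gene (182), fz2 (148), nkd, a Wnt antagonist (147), Mad, a Smad (124), and put, a type II receptor (113), and a peak inside CG1677 was nearest to the TSS of brk, a repressor of Dpp targets. The EGFR and Ras list had 5 of 23 (91.5 per Mb), led by edl (333) and Egfr (174), with Raf, pnt and aop between 95.8 and 104. The Hippo list had 3 of 16 (108 per Mb), Diap1 (362), ex (199) and mats (119). The Notch list had 2 of 16, neur (296) and mam (171), and its 44.2 per Mb was close to the 46.9 over all such sequence. Beyond rank 3312 in 1 replicate were also the peaks shown for fz2, put, Raf, pnt and mats, and the one nearest brk. For nkd, Raf, pnt, ex and mam the TSS nearest the peak shown was that of a non-coding gene.

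Genes of chromatin proteins and transcription factors included some of the highest signals. Of 32 Polycomb, trithorax and insulator genes 5 were hosts, with 8 peaks at 203 per Mb: Trl (656), ph-p, a Polycomb group gene (228), kis, a chromatin remodeller (179), lola (164) and osa (113). The kis and lola peaks shown had the TSS of a non-coding gene as the nearest. The count was 3 of 32 in replicate 3's own set and 5 of 32 in replicate 4's. Of 27 BTB and zinc finger factors 8 were hosts (138 per Mb), among them ush, Trl, crol (203), fru (194) and chinmo (158). The crol and lola peaks shown were weaker in replicate 3, where they ranked 7499 and 5931, beyond rank 3312. The osa peak had no region in replicate 3. Of 44 bHLH genes, the family of Sage itself, 5 were hosts (133 per Mb): sima, tai, crp (196), SREBP (162) and Mnt (95.8). The Mnt peak ranked 8104 in replicate 3.

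Genes of the cytoskeleton and cell junctions were hosts in 14 of 42 cases (33.3%, 15 peaks at 113 per Mb), all but Msp300 with a single peak. After crb the highest signals were at Moe, the moesin gene (290, rank 217 in replicate 3 and 490 in replicate 4), dia, a formin (179.7), mys, an integrin beta subunit (174), sn, the fascin gene (159), and Msp300, a nesprin (147). The others, ena, Rho1, sdt, jar, scrib, tsr, Pax and cher, had signals from 100.2 to 138, and each of these 8 lay beyond rank 3312 in at least 1 replicate. So did the mys peak, with rank 5047 in replicate 3. The list gave 9 of 42 in replicate 3's own set and 10 of 42 in replicate 4's. In the cell death and autophagy list 3 of 27 genes were hosts (Diap1, Dronc at 112 and Atg1 at 104), and in the circadian clock list 4 of 15 (dco at 188, sgg, Pdp1 at 116 and kay at 104). The Atg1 and kay peaks were beyond rank 3312 in replicate 3. The Atg1 peak lay nearest the TSS of the overlapping gene CG42709, and the Pax peak nearest that of the overlapping gene Alp12. The jar peak lay nearest the TSS of a tRNA gene. The circadian gene cbt was no host, but its TSS was the nearest to the peak inside ush (1109.9).

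The lists for the salivary gland and for single tissues had 0 or 1 host each, and their densities rest on 0 to 2 peaks, so they are not read as high or low. Of 14 salivary gland transcription factors 1 was a host, hth (103, 40.8 per Mb), and its peak was beyond rank 3312 in both replicates, and neither replicate's own set had any of the 14. The TSS nearest the hth peak was not one of hth. None of 12 glue genes was a host, but these short genes hold only 0.059 kb of sequence that meets the rule, so the count says nothing about them. The same limit applies to the 85 ribosomal protein genes, with 0 hosts and 5.26 kb of such sequence. The secretory pathway list had 1 of 36, Sar1, a GTPase of COPII coats (151), in 9.46 kb of sequence, or 106 per Mb. Imaginal disc and patterning regulators had 1 of 33 (hth again) in 106 kb of sequence, or 9.42 per Mb. Among tissue markers, 1 of 12 fat body genes (bmm, 96.0), 1 of 13 muscle genes (Msp300), 1 of 10 neuron genes (elav, 129), 1 of 8 hemocyte genes (ush, through the peak nearest cbt) and 0 of 7 midgut genes were hosts. The bmm peak was beyond rank 3312 in both replicates. The muscle gene Zasp52 was no host, but its TSS was the nearest to a peak of signal 209 outside it. The densities were 70.2 per Mb for fat body, 48.9 for muscle, 30.4 for neuron and 48.9 for hemocyte genes.

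**Figure D4:**
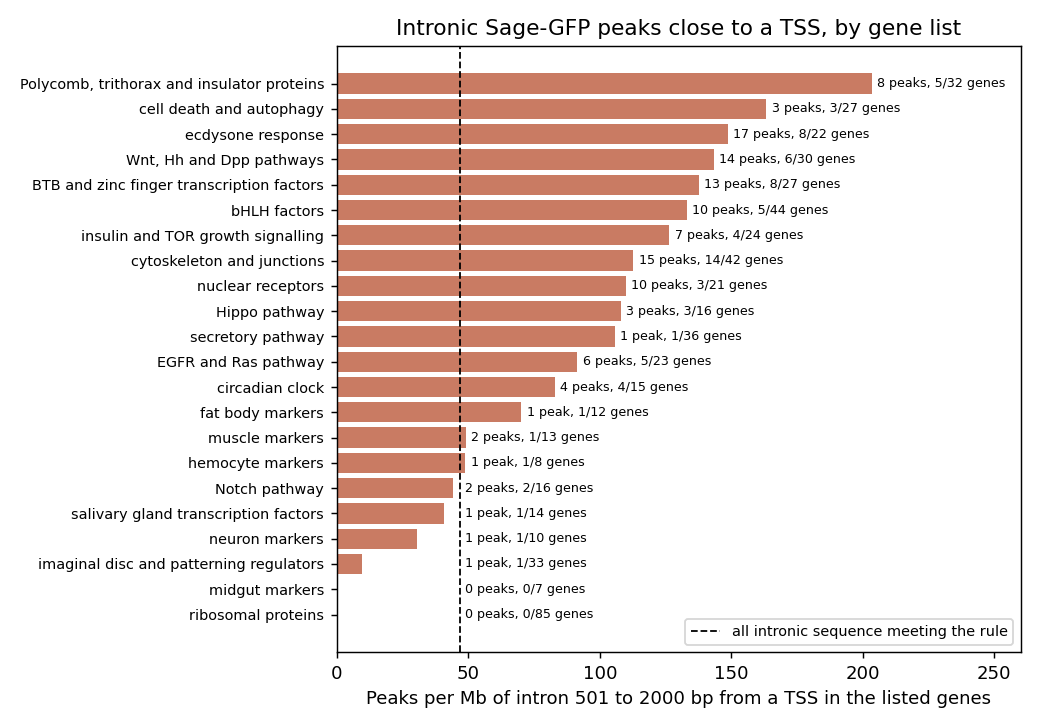
Near-TSS intronic peaks per Mb of sequence meeting the position rule in the genes of each list (bars), with the number of peaks and of host genes per list beside each bar; the dashed line is the 46.9 per Mb over all such sequence. Glue genes are left out because they hold almost none of this sequence, and several bars rest on 1 to 3 peaks.

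A and T dominated the summits. GC content within 50 bp of the summit was 34.6% ± 8.4 (SD over 524 peaks), beside 41.9% ± 7.2 in flanking windows of equal size centred 500 bp away on both sides and 39.2% over all sequence meeting the rule. It was lower at the summit than in the flanks for 400 of the 524 (76.3%). The flanks were not held to the position rule, so they can lie in exons or at a TSS and are not matched sequence. Over all peaks on arms the values were 34.7% at summits and 42.9% in flanks, with 75.7% of summits lower, so the dip was shared by the whole list. Peaks with less GC tended to be stronger (Spearman coefficient -0.19 over 524 peaks, a description). In peaks built from single replicates the summit GC content was 32.7% for replicate 3 and 37.2% for replicate 4.

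**Figure D5:**
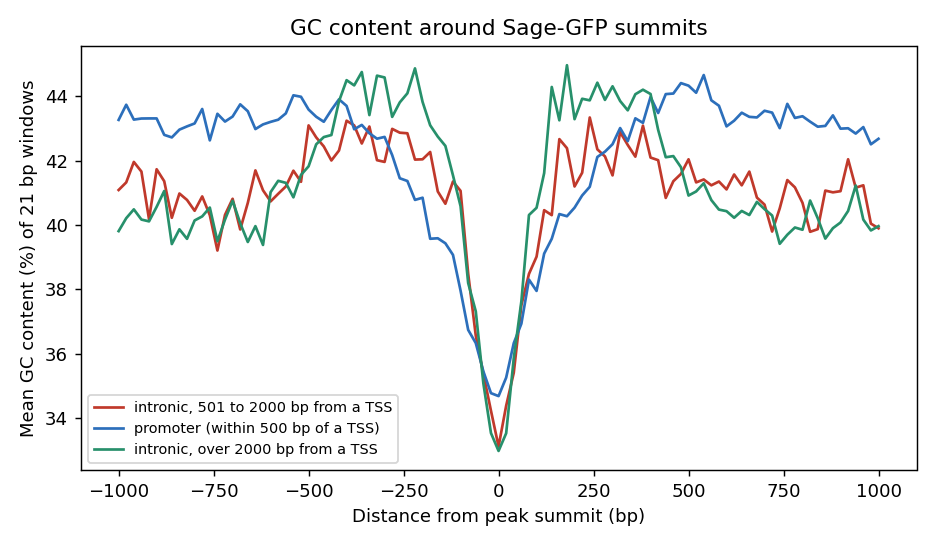
Mean GC content in 21 bp windows from 1000 bp left to 1000 bp right of the summit, for near-TSS intronic, promoter and deep intronic peaks. The 3 curves dip together to 33.1% at near-TSS intronic summits, 34.7% at promoter summits and 33.0% at deep intronic summits.

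E-boxes were no more frequent at these summits than beside them. Of the 524 windows, 191 (36.5%) held a CANNTG, against 39.98% of the flanks, and 35.4% of all peaks on arms held one. Motifs were searched on both strands, and E-box classes are subsets of CANNTG. Summit windows held less GC than the flanks (34.6% and 41.9%). The shares of E-boxes, and of the other motifs and words below, were not corrected for this difference. Nor were they corrected for flanks that lie outside the sequence meeting the rule. Peaks with an E-box had a median signal of 128 and those without one 137, and 54.5% and 61.3% of them were among the strongest of both replicates. By class, CAAATG was found in 11.1% of summit windows and 9.83% of flanks, and CATATG in 4.77% and 4.01%. CAAATG had no stable direction, with 8.02% of summits and 10.7% of flanks in replicate 3's own set and 11.1% and 9.74% in replicate 4's. The forms CACGTG (0.382% of summits and 2.19% of flanks, 2 summits) and CACCTG (1.15% and 4.39%) were rarer at the summits, and they were so in each replicate's own set too.

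Of the other motifs, GATAA, the core of sites for GATA factors, was found in 28.1% of the near-TSS intronic summits and 19.1% of their flanks, beside 23.2% of promoter summits, 22.5% of deep intronic summits and 23.2% of all summits. In the replicates' own sets it was 29.3% at summits and 17.3% in flanks for replicate 3, and 23.3% and 19.3% for replicate 4. The core of forkhead sites, TGTTTA, was found in 16.6% of summits and 10.9% of flanks (14.6% of all summits), and in 15.0% and 10.3% for replicate 3 and 15.9% and 11.4% for replicate 4. Runs of AAAAAA were found in 30.5% and 21.4% (29.6% of all summits). GAGAG, which the GAGA factor binds, had no stable direction: it was in 13.7% of summits and 17.7% of flanks, in 9.82% and 18.3% for replicate 3, and in 19.3% and 15.9% for replicate 4. TAATTA, a homeodomain core, was in 9.73% and 7.16%, in 12% and 6.31% for replicate 3, and in 6.56% and 7.55% for replicate 4. The promoter element TATCGATA (DRE) was in 0 of 524 windows, which allows a share of up to 0.573% when 3 counts are taken as the limit, beside 0.296% of deep intronic summits, 0 of the intergenic ones, 3.02% of promoter summits and 1.49% of all summits.

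Among all 2080 6-letter words, counted with their reverse complements, those that gained most at the near-TSS intronic summits held only A and T, led by ATTTTA (29.2% of summits, 12.7% of flanks), TAAATA (31.1% and 15.0%) and AAATAA (35.1% and 19.7%). Over all summits these 3 were in 28.6%, 29.3% and 35.5%. The first words with a C or G were AAATGT (21.2% and 12.4%), AATGTA (15.6% and 7.06%, 11.3% of all summits) and TGTAAA (16.6% and 8.68%, 12.5% of all summits). AATGTA can be seen in the printed crb window as aatgta. The words that lost most were CAACAA (9.92% of summits, 15.8% of flanks) and GCAACA (5.73% and 11.1%).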

How the data were processed

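ChIP-seq peak lists of 2 samples were used on dm6. According to the text deposited beside the lists, both replicates and their pool have a list of peaks and background regions made as input to IDR, from an alignment and a control, and a last list holds the regions past the IDR threshold. The replicate lists held 29999 and 30000 regions and the pooled list 30000, and all 3312 IDR regions were in the pooled list with the same signal. The deposited signal is the authors' value for a region. Scaling of the signal, aligner, peak caller and software versions: not given in the sources used here. Signal was therefore compared within 1 list only. The control library and the dm3 lists were not used here. The labels number the samples as biological replicates and do not say whether the larvae were collected separately.

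Summits were the start plus the offset in each row, given counted from 1. Genes and TSSs came from Ensembl release 115 (BDGP 6), with 13945 protein-coding genes on these arms. Sequences were read from the RefSeq Release 6 genome. A replicate region matched a peak when they shared at least 1 bp, and the strongest was taken. The motif and GC windows reached 50 bp to either side of a summit. Flank windows were centred 500 bp away, whether or not that sequence was intronic. Counts were made in Python 3.11.15 with pandas 2.3.3, numpy 2.4.6 and scipy 1.17.1, and the classification, motif and GC steps were tested on simulated data. With 1 group, no test over samples could be made, and values are descriptions.

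The peaks described and the 23 gene lists were chosen with earlier results of these data known. The lists' titles and the tissue markers were written with the design. The other genes of the lists were written out once the files were at hand, and the density per Mb of eligible intron was added then too. Older symbols of 10 listed genes were matched through the RefSeq gene table (for example Tor to mTor and dbt to dco), and ribosomal proteins were taken by symbol. Named genes are the hosts and nearest genes of the 25 strongest peaks, hosts of 3 or more peaks, and list genes with a peak, apart from those said to be picked after their values were seen and those at the edges of the rule. Alternatives were each replicate alone, the upper 50% of the list, only peaks beyond 1000 bp from a TSS, TSSs of protein-coding genes alone, exons of transposable elements, region midpoints, the RefSeq annotation, 1 peak per host, wider windows and nearer flanks.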

Additional observations from a re-analysis of the deposited data

How the results depend on the processing

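The choice of annotation had little effect: 524 peaks met the rule with the RefSeq annotation or with exons of transposable elements counted, 520 with region midpoints and 499 with TSSs of protein-coding genes alone, where the nearest TSS was the host's for 92.2%. Peaks built from replicate 3's or replicate 4's own strongest regions numbered 499 and 503, and 381 and 405 of the 524 met one of them, 292 both. Without a replicate, a TSS peak accompanied 23.2% to 28.0%, and median signals, on other scales, were 62.4 to 83.9. The upper 50% of the list gave 258 peaks, a median signal of 187, a TSS peak for 18.2% and 89.9% in the strongest regions of both replicates, which its cut on signal brings with it. Peaks beyond 1000 bp from a TSS had a TSS peak for 33.6% and were in both replicates' strongest regions for 54.3%; the cause was not tested. The both-replicate share was 51.1% with summits within 100 bp, chosen after seeing the data. Windows of 100 bp to either side held an E-box in 63.9%, being longer. Flanks 300 bp away had 42.4% GC and held an E-box in 44.0%. The median signal was 128 beyond 1000 bp and 143 with 1 peak per host. Counts of listed hosts fell with the smaller set beyond 1000 bp, to 1 of 24 in the insulin and TOR list and 1 of 15 in the circadian list, where 1.69% of all protein-coding genes were hosts. The other shares stayed within their counting interval, and summit GC content within the spread between the replicates. No paired analysis was possible because both samples form 1 group. Depth is unknown, and the tissue of a peak cannot be told.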
